A study of Homo sapiens with 40 samples.

Results

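OL9-119, an inhibitor of tyrosyl-DNA phosphodiesterase 1 (TDP1), was added to topotecan (Tpc) in wild-type (WT) HEK293A cells, and 8 of the 40 RNA-seq libraries of the series hold that comparison. They were chosen by their titles, as the 4 WT libraries with Tpc + OL9-119 and the 4 WT libraries with Tpc. HEK293A is an established adherent line derived from human embryonic kidney. The Tpc group received 100 nM Tpc with 0.1% DMSO, and the combination group received 100 nM Tpc with 5 μM OL9-119, which was dissolved in DMSO at the same 0.1%. Exposure lasted 5 to 5.5 h. WT cells with 0.1% DMSO and WT cells with 5 μM OL9-119 in DMSO, 4 libraries each, were used to read the addition without Tpc. The line with a CRISPR/Cas9 knockout of PARP1 (PARP1-KO), which is 1 clone, was used with Tpc at 50 nM instead of 100 nM, with 4 libraries without and 4 with 5 μM OL9-119. The 10 conditions also include untreated cells of both genotypes and the DMSO and OL9-119 groups of PARP1-KO cells.

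Topoisomerase 1 (TOP1) relaxes DNA by cutting a strand and holding its end through a tyrosine. Tpc, a camptothecin derivative used against tumors, traps TOP1 on the cut strand, and TDP1 removes the trapped enzyme from the DNA end. Other programs come up below. ATF4 is a transcription factor whose translation rises when the initiation factor eIF2 is phosphorylated, as happens in amino acid shortage, ER stress and mitochondrial stress, and it drives genes of amino acid supply and of the stress response. HSF1 drives genes of chaperones such as HSP70 when proteins misfold. Mitochondrial DNA is copied into long RNAs from both strands, which are cut into messengers, rRNAs and tRNAs, and the tRNAs and ND6 of the light-strand transcript lie on the minus strand of the reference.

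Total counts were 12237306, 9095119, 7685983 and 3455043 in combination replicates 1 to 4 and 12792031, 11302317, 6300822 and 7555288 in Tpc replicates 1 to 4, so that the shallowest library was a combination library. The labels call the replicates biological and the methods of the study call them technical, so the p-values measure only the spread between these libraries. Genes of mitochondrial DNA took 5.07% to 6.52% of the counts with both drugs and 6.12% to 7.23% with Tpc. The cell type was checked by its markers. The 4 epithelial markers summed to 839 to 1070 CPM (a library's counts scaled so that depths are comparable) with both drugs and 979 to 1134 with Tpc, the 5 embryonic kidney markers to 30.9 to 43.7 and 34.04 to 46.1 CPM, and the 4 neuronal genes that HEK293 cells express to 286 to 328 and 231 to 277 CPM. Of other cells, 5 leukocyte genes were low, at 2.20 to 3.78 and 0.533 to 2.19 CPM. So were 4 endothelial genes, at 0.481 to 7.35 and 3.71 to 8.47 CPM. The 5 fibroblast genes, at 34.1 to 49.7 and 26.7 to 44.1 CPM, lay at the level of the embryonic kidney markers. The kidney and fibroblast sets therefore do not tell these cell types apart. None of these markers was called. In bulk RNA, fewer cells of a kind and less RNA per cell cannot be told apart. Libraries of replicates 3 and 4 share a title prefix and had the lowest chi-square per degree of freedom between them, at 3.00 and 2.34. This measure rises with depth, and they were the shallowest libraries of each group. Combination replicate 4, the shallowest library, was at 10.9 with replicate 1, 13.1 with replicate 2 and 3.00 with replicate 3. Tpc replicate 1 was at 5.39 with replicate 3 and 5.85 with replicate 4. The part of depth in these values was not tested.

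TDP1 and TOP1 mRNA were read first, as the targets of the 2 drugs, although an mRNA level does not check the activity of an enzyme. TDP1 mRNA was at 23.4, 12.3, 22.9 and 18.3 CPM with Tpc and at 16.3, 10.1, 21.7 and 16.7 CPM with both drugs in replicates 1 to 4. The ranges overlapped, and the log2 fold change (log2FC) was −0.25 ± 0.26 (SE, n = 4 and 4; edgeR adjusted p = 0.764; exact two-sided permutation p = 0.4). TOP1 had a log2FC of 0.06 ± 0.10 (edgeR adjusted p = 0.911; exact permutation p = 0.543), and the smallest p that 70 divisions allow is 0.0286. None of the 28 listed genes of TOP1 and TDP1 repair was called.

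Of 28922 genes tested, 52 were differentially expressed (DEGs, adjusted p under 0.01 by the edgeR quasi-likelihood test) on adding OL9-119 to Tpc, which is 0.18% of them. 34 rose (0.118%) and 18 fell (0.0622%). In all 52 the CPM of the 4 libraries of each group did not overlap, while over all genes 543 (1.88%) did not overlap with the combination higher and 754 (2.61%) with it lower. 51 of the 52 averaged 50 counts or more in the 8 libraries, and 48 were protein coding. 3111 genes (10.8%) had an unadjusted p under 0.05. 18 of the 52 share exonic positions with another gene, such as DDIT3 with MARS1 and MBD6, SLC7A11 with SLC7A11-AS1 and HSPA8 with SNORD14C and SNORD14D, and the strand column that was counted is not stated, so reads of such neighbours may be included. The count of DEGs depended on single libraries: it was 34 without combination replicate 1, 38 without replicate 2, 53 without replicate 3 and 44 without replicate 4, and 31, 34, 33 and 38 without Tpc replicates 1, 2, 3 and 4. It was 22 when only the WT libraries were fitted.

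The largest group of DEGs belonged to the ATF4 pathway. Of 55 listed genes, 18 rose and 1 fell, beside 0.118% and 0.0622% of all genes tested. In this list 49 had a positive log2FC and the median was 0.55, beside a median of 0 over all genes tested. Genes for transcription factors and regulators were 4 of 10 up, stress effectors 5 of 12 up and 1 down, amino acid synthesis 3 of 11 up, amino acid transporters 1 of 10 up and aminoacyl-tRNA synthetases 5 of 12 up. The member that fell was TXNIP, an inhibitor of thioredoxin. This list and the others were compiled by hand with earlier results of these data known. Their counts and medians are a description only. ATF4 mRNA itself had 470, 581, 467 and 453 CPM with Tpc and 717, 724, 569 and 580 CPM with both drugs, and was not a DEG (log2FC 0.39 ± 0.14, edgeR adjusted p = 0.268). ASNS, the asparagine synthetase, averaged 26 counts and had a log2FC of 0.97 with adjusted p = 0.572, and CEBPB had 0.94 with adjusted p = 0.0275.

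Among the regulators and effectors, DDIT3 (CHOP, a transcription factor of the stress response) was at 34.6, 36.7, 35.3 and 32.1 CPM with Tpc and at 73.1, 109, 80.2 and 79.9 CPM with both drugs, a log2FC of 1.30 ± 0.18 (edgeR adjusted p = 4.5e-06). Every library with both drugs lay above every Tpc library. CHAC1, which breaks down glutathione, was at 6.62, 10.4, 6.65 and 7.09 CPM with Tpc and at 14.98, 41.0, 34.5 and 31.9 CPM with both drugs (log2FC 1.98 ± 0.37, edgeR adjusted p = 0.00167). Its call was lost without Tpc replicate 1, 3 or 4, or combination replicate 2, with log2FC between 1.80 and 1.94. DDIT4, an inhibitor of mTORC1, was at 66.5 ± 10.1 CPM with Tpc and 155 ± 29.8 with both drugs (mean ± SD, n = 4; log2FC 1.22 ± 0.14, edgeR adjusted p = 1.08e-07). TRIB3, a pseudokinase that restrains this response, was at 48.1 ± 2.98 and 96.96 ± 9.32 CPM (log2FC 1.01 ± 0.14, edgeR adjusted p = 1.69e-06). STC2, a secreted glycoprotein, was at 82.9 ± 6.65 and 163 ± 18.2 CPM (log2FC 0.98 ± 0.12, edgeR adjusted p = 1.59e-07). VEGFA and SESN2 also rose, by 0.66 and 0.62. Each lost its call when a single library was left out, VEGFA only without Tpc replicate 2 (0.62, adjusted p = 0.0143) and SESN2 in 7 of 8 cases.

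In amino acid supply, SLC7A11, the cystine transporter, was at 23.0, 16.97, 25.7 and 25.4 CPM with Tpc and at 64.1, 36.8, 77.3 and 82.9 CPM with both drugs. The lowest library with both drugs, replicate 2, lay above the highest Tpc library (log2FC 1.52 ± 0.21, edgeR adjusted p = 4.5e-06). CTH, which makes cysteine from cystathionine, was at 8.59 ± 1.23 CPM with Tpc and 24.7 ± 7.19 with both drugs (log2FC 1.54 ± 0.27, edgeR adjusted p = 0.000532), and it lost its call without combination replicate 1 (1.29, adjusted p = 0.0171). PSAT1, of serine synthesis, was at 102.7 ± 5.02 and 178 ± 11.2 CPM (log2FC 0.80 ± 0.10, edgeR adjusted p = 1.07e-06). MTHFD2, of mitochondrial one-carbon metabolism, rose by 0.68 on the log2 scale, from 236 ± 17.5 to 378 ± 36.4 CPM. Of the tRNA-charging enzymes, AARS1 rose from 161 ± 8.02 to 257 ± 22.7 CPM (log2FC 0.68 ± 0.11, edgeR adjusted p = 4.27e-05), and CARS1, YARS1, GARS1 and TARS1 rose by 0.63, 0.57, 0.54 and 0.48, each losing its call in at least 5 of 8 fits that left out 1 library.

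The letters TGATGNAA, the form of the C/EBP-ATF response element (CARE), were searched on both strands in the 250 bases before to 50 after the RefSeq start (GRCh38.p14). They were present in 3.62% of 35116 promoters, in 5 of the 25 risen genes with a promoter in the table (20%) and in 12 of 44 of the ATF4 list (27.3%). The 5 genes were CHAC1, AARS1, BCAT1, CARS1 and TARS1. A match is a description of the letters only. The promoters of CHAC1 and AARS1 are shown because they carry the element upstream of the start and belong to genes that rose. The capitals mark the element, read on the other strand as TTGCATCA. They run 5′ to 3′ on the gene's strand.
CHAC1, chr15:40953221-40953470, plus strand: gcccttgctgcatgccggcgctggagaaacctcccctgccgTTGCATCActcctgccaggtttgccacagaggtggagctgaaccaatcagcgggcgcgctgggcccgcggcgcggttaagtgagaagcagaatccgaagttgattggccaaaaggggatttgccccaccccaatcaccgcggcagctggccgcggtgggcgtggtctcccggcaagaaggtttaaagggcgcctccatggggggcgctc
AARS1, chr16:70289507-70289756, minus strand: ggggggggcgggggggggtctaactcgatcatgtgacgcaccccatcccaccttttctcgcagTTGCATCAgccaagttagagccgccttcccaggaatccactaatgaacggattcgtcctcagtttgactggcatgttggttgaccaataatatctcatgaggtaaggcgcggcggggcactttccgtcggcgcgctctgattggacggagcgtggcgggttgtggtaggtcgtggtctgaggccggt

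**Figure D1:**
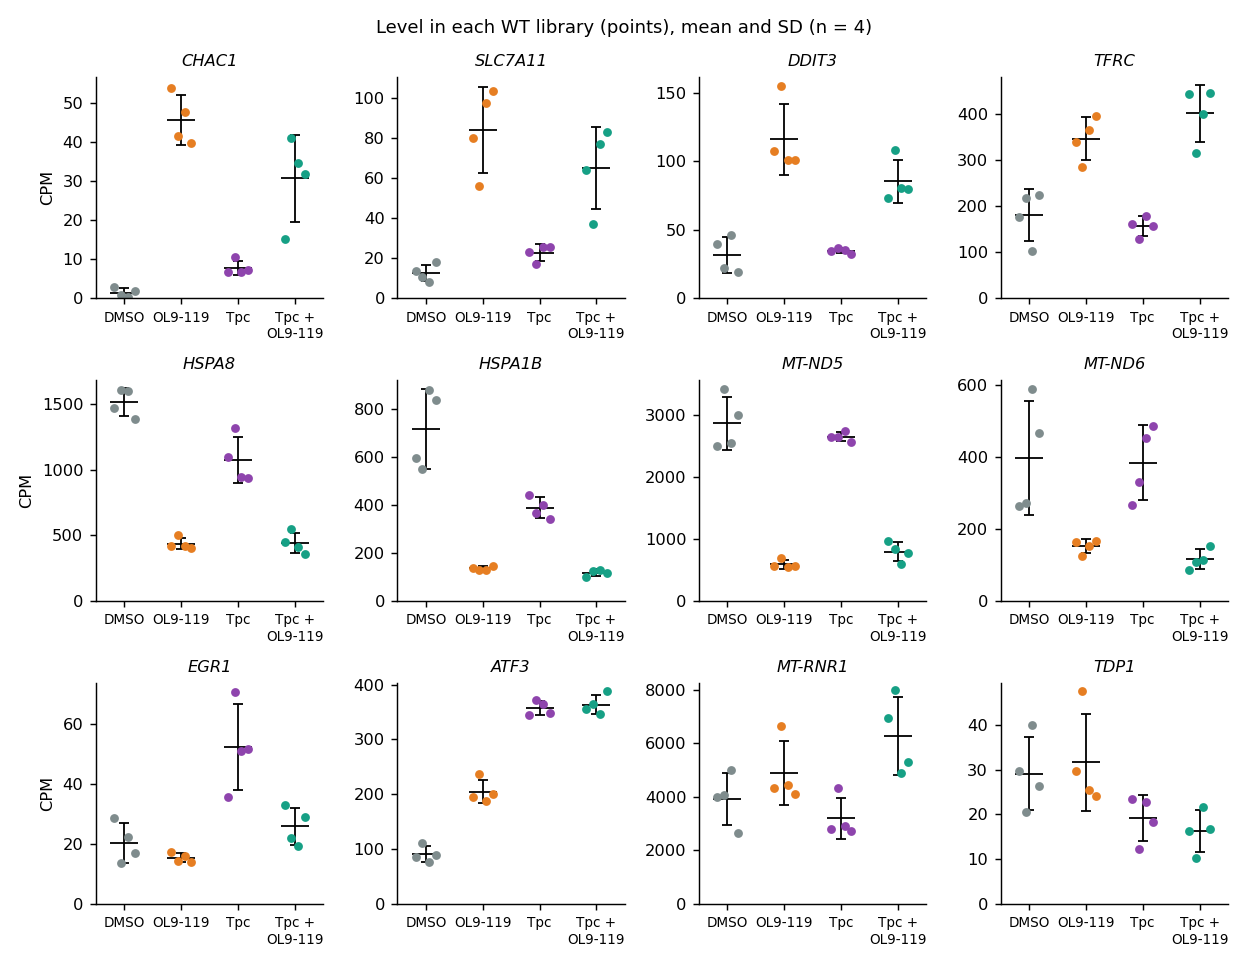
CPM in each WT library with DMSO, OL9-119, Tpc and Tpc + OL9-119 for 12 genes, with the mean and SD (n = 4). DDIT3 with both drugs lies above its Tpc libraries, while ATF3, at 358 CPM with Tpc and 364 CPM with both, and TDP1 overlap between these groups.

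Heat shock genes moved the other way. Of 22 listed genes, 4 fell, beside 0.0622% of all genes, and none rose. Among the 22, 21 had a negative log2FC, with a median of −0.31. HSPA8, the constitutive HSP70 chaperone, was at 1100, 1320, 945 and 938 CPM with Tpc and at 450, 547, 410 and 360 CPM with both drugs, so that the groups were far apart (log2FC −1.28 ± 0.12, edgeR adjusted p = 1.53e-10). HSPA1B, an inducible HSP70, was at 442, 367, 399 and 341 CPM with Tpc and at 97.2, 122.3, 130 and 117.2 CPM with both drugs. Its log2FC of −1.73 ± 0.15 had the lowest adjusted p of the 52 DEGs (6.13e-12, edgeR). HSPA1A is nearly identical in sequence, so how reads divide between the 2 genes is uncertain. HSPA1A itself had a log2FC of −1.73 with adjusted p = 0.119. DNAJB1 and DNAJA1, which are HSP40 co-chaperones, fell by 0.60 and 0.50 on the log2 scale. DNAJB1 lost its call without combination replicate 4 (−0.52, adjusted p = 0.0101), and DNAJA1 lost it in 7 of 8 fits. HSPA6, another inducible HSP70, was not a DEG (log2FC −0.97, adjusted p = 0.570). Of 22 ER chaperone genes only XBP1, a transcription factor of the ER stress response, was called (log2FC 0.70), and HSPA5, the main ER chaperone, had a log2FC of 0.20 with adjusted p = 0.518.

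The letters GAANNTTC of the heat shock element were in 6.77% of all promoters, in 3 of 10 promoters of genes that fell (30%), in 3 of 25 of those that rose (12%) and in 6 of 19 of the heat shock list (31.6%). The 3 promoters of genes that fell were those of HSPA8, HSPA1B and DNAJA1. The pair below is shown because they belong to the 2 DEGs of largest fall in that list, with the elements in capitals.
HSPA8, chr11:123062137-123062386, minus strand: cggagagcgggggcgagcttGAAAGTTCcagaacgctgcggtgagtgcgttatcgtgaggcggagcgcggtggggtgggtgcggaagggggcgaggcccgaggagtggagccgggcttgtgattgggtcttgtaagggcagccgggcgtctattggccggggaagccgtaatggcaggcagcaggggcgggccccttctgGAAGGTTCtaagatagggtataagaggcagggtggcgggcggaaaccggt
HSPA1B, chr6:31827488-31827737, plus strand: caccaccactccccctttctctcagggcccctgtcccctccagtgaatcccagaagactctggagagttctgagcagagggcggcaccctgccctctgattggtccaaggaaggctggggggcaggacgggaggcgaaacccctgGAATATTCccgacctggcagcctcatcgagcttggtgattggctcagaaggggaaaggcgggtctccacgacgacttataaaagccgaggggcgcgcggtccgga

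Mitochondrial DNA gave 6 DEGs among 28 genes tested, beside 0.18% of all genes. MT-RNR1, the small rRNA, rose, and MT-TQ, MT-TP, MT-ND6, MT-ND5 and MT-CO2 fell. MT-ND5, a subunit of complex I, was at 2651, 2651, 2738 and 2570 CPM with Tpc and at 961, 846, 599 and 775 CPM with both drugs (log2FC −1.74 ± 0.23, edgeR adjusted p = 1.08e-06). MT-ND6, the complex I subunit encoded on the minus strand, was at 265, 329, 454 and 487 CPM with Tpc and at 85.7, 109, 113.9 and 152 CPM with both drugs (log2FC −1.74 ± 0.23, edgeR adjusted p = 1.69e-06). Both groups were separate for both genes, whose ends meet on opposite strands. Of the 12 plus-strand messengers, 10 had a negative log2FC, with MT-CO2 at −0.63 ± 0.12 (edgeR adjusted p = 0.00307), MT-ND3 at −0.71 with adjusted p = 0.151 and MT-ND1 at 0.09. MT-CO2 lost its call in 4 of 8 fits that left out 1 library (−0.69 to −0.56).

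MT-RNR1 was at 2783, 4349, 2926 and 2710.5 CPM with Tpc and at 6945, 7985, 4879 and 5294 CPM with both drugs, and its neighbour MT-RNR2 had a log2FC of −0.03. MT-RNR1 lies at chrM:648-1601 of hg38. Its log2FC was 0.98 ± 0.19 (edgeR adjusted p = 0.00295), but the call was lost in 5 of 8 fits that left out 1 library, without combination replicates 1 or 2 or Tpc replicates 1, 3 or 4, with adjusted p up to 0.0421, and also with filterByExpr and with DESeq2. The library was selected for poly(A), so rRNA and tRNA counts are those of molecules that passed this step.

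Among the tRNA genes of the minus strand, 7 were tested, 6 had counts with Tpc and all 6 had fewer with both drugs. MT-TQ, the glutamine tRNA gene, was at 11.2, 11.3, 10.4 and 12.5 CPM with Tpc and at 0, 0, 0.249 and 1.65 CPM with both drugs, or 436 against 8 counts over 4 libraries (log2FC −5.20 ± 0.86, edgeR adjusted p = 0.00019). MT-TP, the proline tRNA gene, had 477 against 25 counts (log2FC −3.99 ± 0.62, edgeR adjusted p = 4.27e-05), and replicate 2 held 22 of the 25. Without that library its log2FC was −6.45, and its call was lost when only the 8 libraries compared were fitted (adjusted p = 0.0113). MT-TA went from 34 to 0 counts, MT-TE from 32 to 0, MT-TY from 7 to 0 and MT-TS1 from 63 to 17, none of them a DEG. MT-TQ overlaps MT-TI of the other strand. The tRNA genes of the plus strand had few counts and mostly a negative log2FC, with a large SE. Whether the fall was particular to the minus strand cannot be told from them. MT-TI went from 19 to 8 counts (log2FC −1.12 ± 1.28) and MT-TF from 11 to 3 (−1.08 ± 1.57). MT-TW went from 31 to 8 (−1.08 ± 1.18) and MT-TT from 39 to 6 (−2.18 ± 1.24). These summed counts, like those of the minus strand, are not scaled for depth. MT-TM went from 0 to 1, and none of them was a DEG. The sequences of the 2 called tRNA genes are shown because they had the largest log2FC in size among the DEGs (hg38).
MT-TQ, chrM:4329-4400, minus strand: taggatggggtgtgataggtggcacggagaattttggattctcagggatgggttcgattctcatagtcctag
MT-TP, chrM:15956-16023, minus strand: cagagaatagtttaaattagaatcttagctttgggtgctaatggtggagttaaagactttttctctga

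**Figure D2:**
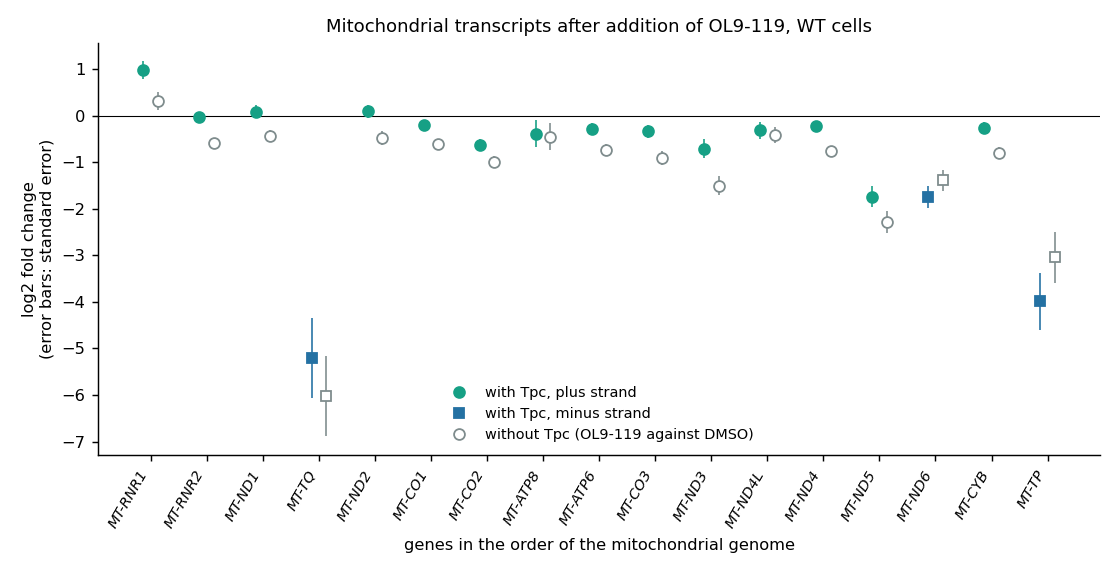
Log2FC with SE of 17 mitochondrial genes with a mean of at least 50 counts, in genome order, with squares for the minus strand, for OL9-119 with and without Tpc. MT-ND5 and MT-ND6 both lie at −1.74 with Tpc, and MT-RNR1 at 0.98.

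Of 34 listed immediate early genes, 13 rose with Tpc against DMSO (median log2FC 0.80), beside 0.629% of all genes. When OL9-119 was added to Tpc, 3 of the 34 fell, beside 0.0622% of all genes, and none rose. These comparisons use the same Tpc libraries with opposite sign, so high values in those libraries give both a rise and a fall. The values are therefore only set side by side, and a reversal was not tested. With OL9-119 alone, 6 of the 34 rose, beside 0.488% of all genes, and none fell (median log2FC 0.30). EGR1, a zinc-finger transcription factor induced early by signals, was at 28.8, 13.5, 22.3 and 16.9 CPM with DMSO, at 35.8, 70.9, 51.1 and 51.8 CPM with Tpc and at 33, 22.1, 19.4 and 28.8 CPM with both drugs (log2FC −1.02 ± 0.18, edgeR adjusted p = 0.000503). The lowest Tpc library lay only just above the highest with both drugs. CCN1, a matricellular protein, was at 127.7 ± 35.8 CPM with Tpc and 68.1 ± 2.92 with both drugs (log2FC −0.91 ± 0.16, edgeR adjusted p = 0.000398). EGR1 and CCN1 lost their calls without Tpc replicate 2, at −0.85 (adjusted p = 0.0173) and −0.71 (adjusted p = 0.0210). CCN2 fell by 0.88 on the log2 scale and lost its call in 5 of 8 fits. FOS had a log2FC of −0.13 (adjusted p = 0.978).

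For the NF-κB genes, 0 of 38 were called by edgeR, with a median log2FC of 0.06. CXCL8, a chemokine, had a log2FC of 0.01 on adding OL9-119 and of 4.53 for Tpc against DMSO, which uses the same Tpc libraries. ICAM1, an adhesion receptor, had a log2FC of 0.50 with adjusted p = 0.544, and NFKB1 0.04. Of the p53 targets 1 of 34 rose, which was SESN2, and CDKN1A and MDM2 had log2FC of −0.12 and 0.02. HMOX1, of the NRF2 response, had 0.15. SLC7A11, a DEG given above (log2FC 1.52), is also in the list of NRF2 and metal genes, whose median was −0.06. The PARP1 gene had a log2FC of 0.00 with adjusted p = 1.

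Other DEGs were single genes. TFRC, the transferrin receptor of iron uptake, was at 160, 127.2, 179 and 157 CPM with Tpc and at 442, 315, 399 and 446 CPM with both drugs (log2FC 1.36 ± 0.20, edgeR adjusted p = 1.55e-05). The lowest library with both drugs lay well above the highest Tpc library. The noncoding RNA NEAT1, of paraspeckles, rose from 354 ± 26.4 to 626 ± 28.7 CPM (log2FC 0.82 ± 0.10, edgeR adjusted p = 4.84e-07), and TSC22D3, a glucocorticoid-induced regulator, from 47.4 ± 4.49 to 103.9 ± 18.3 CPM (log2FC 1.13 ± 0.15, edgeR adjusted p = 1.69e-06). ID4, an inhibitor of helix-loop-helix factors, rose by 0.63, and ULBP1, a ligand of the NKG2D receptor, by 1.15. H2BC21, a histone gene counted 39.0 times per library on average, rose by 2.41 and lost its call in 7 of 8 fits that left out 1 library. TXNIP fell from 109 ± 8.88 to 58.1 ± 12.8 CPM (log2FC −0.90 ± 0.14, edgeR adjusted p = 4.27e-05), and TNFRSF10D, a decoy receptor for TRAIL, from 41.4 ± 4.30 to 22.7 ± 2.74 CPM. TNFRSF10D lost its call with WT libraries only and with only the libraries compared (edgeR adjusted p up to 0.0684). SF3B5, a splicing factor subunit, fell by 0.85 and DAD1, of N-glycosylation, by 0.73. The remaining DEGs that rose were CALCB (1.18), SLFN5 (1.04), ARRDC3 (0.93), GPT2 (0.83), BCAT1 (0.76), NFIL3 (0.75), HEY1 (0.60), EIF5 (0.54), SAT1 (0.52) and CEBPG (0.47), and PPP1R10 fell by 0.64. GPT2 makes glutamate from alanine, BCAT1 transfers amino groups of branched-chain amino acids, and CEBPG is a partner of ATF4. Leaving out 1 of the 8 libraries ended the call in at least 1 fit for all of these but ARRDC3 and SAT1, and for SF3B5 in 4 and DAD1 in 7 of the 8 fits. ARRDC3 and SAT1 lost theirs when only the WT libraries were fitted (edgeR adjusted p = 0.0165 and 0.0318). With length and GC offsets SF3B5 was at −0.56 and not called.

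Other lists had few calls. Of 79 ribosomal protein genes 77 had a negative log2FC with a median of −0.16, which was −0.101 without Tpc replicate 2 and −0.218 without combination replicate 2. Of 76 nuclear oxidative phosphorylation genes 61 were negative with a median of −0.23, and only ATP5MC3, an ATP synthase subunit, fell. ATP5MC3 lost its call in 7 of the 8 fits that left out 1 library and under 6 of 12 other settings. Medians were −0.14 for 45 proteasome genes, −0.11 for 45 genes of G1/S and replication and −0.02 for 39 genes of G2 and mitosis, with 0 called in each. Gene span moved with the log2FC: genes under 10 kb that averaged 50 counts or more over the 40 libraries had a median of −0.10 (2245 genes) and those of at least 500 kb a median of 0.07 (152 genes), and the part of span in the list medians was not tested.

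The addition was compared with OL9-119 against DMSO, which shares no library with it. OL9-119 alone gave 334 DEGs (1.15%), of which 141 rose (0.488%) and 193 fell (0.667%). When length and GC content entered as offsets, the split was 171 and 360. All 34 risen and all 18 fallen DEGs of the addition had the same sign alone, 44 of them were also called alone, and 36 were smaller in size with Tpc. These are genes called in 1 of the comparisons. Across the 12161 genes that averaged 50 counts or more over the 40 libraries, whose estimates share the normalization, the correlation of the log2FC with and without Tpc was 0.36. The 141 genes that rose alone had a median of 0.83 alone and 0.45 with Tpc, with 135 positive, and the 193 that fell had −0.70 and −0.29, with 180 negative. Because these genes were chosen by their call without Tpc, their smaller medians with Tpc are a description only. HSPA8 was at 1470, 1610, 1600 and 1390 CPM with DMSO and at 422, 503, 421 and 404 CPM with OL9-119 alone, and its log2FC was −1.79 alone against −1.28 with Tpc. In the ATF4 list, 37 genes rose and 1 fell alone (median 0.84), and CHAC1 went from 1.36 ± 1.15 to 45.6 ± 6.44 CPM.

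The difference of the log2FC with and without Tpc was itself tested, and 1 gene passed (0.00346%), with 3008 genes (10.4%) at an unadjusted p under 0.05. This was ATF3, a stress-induced transcription factor, named after its values were seen. It was at 85.8, 112, 75.8 and 89.2 CPM with DMSO, at 195, 237, 188 and 200 CPM with OL9-119, at 344, 373, 365 and 349 CPM with Tpc and at 355, 364, 347 and 388 CPM with both. Either drug alone gave values above all DMSO libraries, and OL9-119 added to Tpc left the ranges overlapping. Its log2FC was 1.18 without Tpc and 0.02 with Tpc, a difference of −1.16 ± 0.15 (edgeR adjusted p = 6.5e-06). CHAC1, STC2, VEGFA and TUBB3 just missed the threshold (edgeR adjusted p = 0.0103), with differences of −3.01, −0.89, −0.93 and −6.37.

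Tpc against DMSO in WT cells gave 285 DEGs (0.985%), 182 of them higher (0.629%) and the others lower (0.356%), and 4672 genes (16.2%) at an unadjusted p under 0.05. With the length and GC offsets the split was 218 and 242. It shares the 4 Tpc libraries with the addition, so values are only set side by side. Of the 34 genes that rose on the addition, 6 were called higher and 1, HEY1, lower by Tpc, and of the 18 that fell 2, EGR1 and CCN1, were higher and 2, DNAJB1 and HSPA1B, lower. HSPA1B was thus at 714 ± 166 CPM with DMSO, 387 ± 43.6 with Tpc and 116.6 ± 13.9 with both drugs.

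In PARP1-KO cells, with Tpc at 50 nM, 1 of the 4 libraries labelled Tpc + OL9-119 stood apart, and the values are given with and without it. Replicate 3 of that group lay farthest against the WT direction in 40 of the 52 DEGs, beside 7, 4 and 1 for replicates 1, 2 and 4. MT-ND5 was at 2138, 1827, 2380 and 1854 CPM with Tpc and at 711, 548, 2139 and 598 CPM with both drugs. TFRC was at 192, 153, 190 and 191 CPM with Tpc and at 401, 336, 206 and 395 CPM with both. In both genes, replicate 3 was close to the Tpc libraries and the other 3 were far from them. HSPA8, CHAC1, MT-TP and CCN1 also had replicate 3 within the range of the Tpc libraries or beside it, at 896, 7.71, 10.48 and 146 CPM.

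With all 4 libraries, adding OL9-119 to Tpc in PARP1-KO cells gave 0 DEGs by edgeR (0%), 1186 genes at an unadjusted p under 0.05 (4.1%) and 1 DEG by DESeq2. Without replicate 3 edgeR gave 1, which was MT-ND5. Its log2FC was −1.04 (adjusted p = 0.558) with that library and −1.71 ± 0.18 (edgeR adjusted p = 1.11e-08) without it. This stood beside −1.75 in WT cells in the same fit, and the genotype difference was then −0.04 ± 0.24. Replicate 3 was set aside for its values in these same DEGs, MT-ND5 among them. The fit without it is therefore a description, and its p-values do not test likeness to WT cells. TFRC had 0.88 with replicate 3 and 1.07 without it (edgeR adjusted p = 0.0254). Genotype, clone and Tpc dose cannot be told apart. The 52 DEGs were chosen by their size in WT cells, so their smaller size in PARP1-KO cells, in 52 of 52 with and without replicate 3, is a description only. The sign was the same in 28 of 34 and 15 of 18 with replicate 3 and in 29 and 15 without it. Across the 12161 genes that averaged 50 counts or more over the 40 libraries, whose estimates share the normalization, the correlation of the log2FC in the 2 genotypes was −0.022 with replicate 3 and −0.024 without it.

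The difference between genotypes was tested, and 2 genes passed (0.00692%), with 2307 (7.98%) at an unadjusted p under 0.05. HSPA1B had −1.73 in WT and −0.27 in PARP1-KO cells (difference −1.47 ± 0.21, edgeR adjusted p = 8.47e-05, and 0.000396 without replicate 3). STC2 had 0.98 and −0.08 (difference 1.05 ± 0.17, edgeR adjusted p = 0.000485, and 0.00636 without replicate 3), with 153 ± 6.22 CPM already in PARP1-KO cells with Tpc. For SLC7A11 and HSPA8 the differences were 1.597 and −0.94 (edgeR adjusted p = 0.0106 each), so these were not called.

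**Figure D3:**
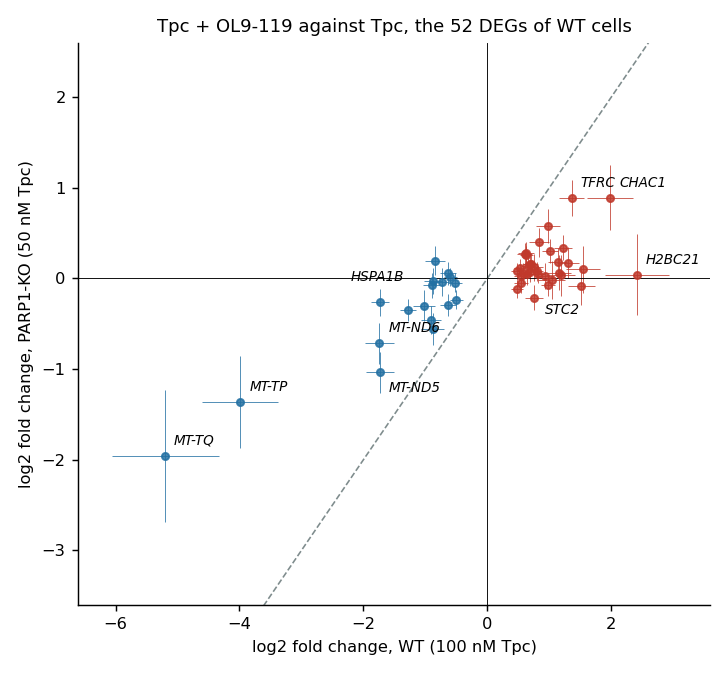
Log2FC with SE of the 52 DEGs of WT cells, in WT cells on 1 axis and in PARP1-KO cells on the other, with a dashed line of equal values. The plotted PARP1-KO values include replicate 3 of the combination. All points lie nearer to 0 in PARP1-KO cells, and HSPA1B stands at −1.73 and −0.27.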

How the data were processed

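RNA-seq of HEK293A cells was used. Per the methods of the study, strand-specific libraries were made from poly(A) RNA, and the authors mapped them with STAR 2.7.8 (hg38) and deposited raw counts per gene, neither normalized nor pooled. The submitters' processing notes also name FastQC 0.11.9 and Picard 2.26.6. All 40 columns matched a sample and 0 columns of other samples were present. Genes whose 40 counts added up to 10 or more (28922 of 58395) were tested with the quasi-likelihood test of edgeR 4.0.16 in R 4.3.3 (TMM, legacy = TRUE, 10 groups, no covariate), with Benjamini-Hochberg adjustment over all of them and a threshold of 0.01. CPM used TMM library sizes, and GENCODE 44 supplied positions for 57754 genes. The SE is the size of the log2FC over the square root of F. The members and gene lists were chosen with earlier results of these data known. The genes named are TDP1, TOP1, the DEGs of largest change with no overlap of groups, called list members and, in addition, genes chosen after their values were seen (ATF4, ASNS, HSPA5, HSPA6, HSPA1A, CXCL8, NFKB1, ICAM1, FOS, ATF3, CDKN1A, MDM2, HMOX1, CEBPB, PARP1, TUBB3, MT-ND1, MT-ND3, MT-RNR2, MT-TA, MT-TE, MT-TF, MT-TI, MT-TM, MT-TS1, MT-TT, MT-TW and MT-TY). Same-numbered libraries correlated at −0.028, 0.155, 0.066 and 0.118 over 12161 genes, so the numbers were not taken to pair samples. On simulated counts, 50 of 67 genes changed by 1 on the log2 scale and 6 of 66 changed by 0.5 were called, with 2 unchanged genes called. The simulated libraries were independent, with a spread set only by a gene's level. Deviating libraries, close replicates and spread particular to a gene were not simulated, so these rates may differ in the data.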

Additional observations from a re-analysis of the deposited data

Results flagged for a closer look

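In groups of 4 libraries, a single value was marked where its gap to the nearest other value exceeded Dixon's 95% critical share of the group's range. This marked 17 of 142 groups over 71 genes. Chance marks about 1 in 20 for independent, normally distributed values. The groups here come from the same 8 libraries and are not independent, so the number marked was not tested against chance. Tpc replicate 2 held 9 of the 17. Tpc replicate 2 was highest for CHAC1 (10.4 CPM against 7.09 for the nearest), MT-RNR1 (4349 against 2926), YARS1 (224 against 176), TARS1 (607 against 535), DNAJA1 (466 against 391.5) and ATF4 (581 against 470 CPM). It was lowest for BCAT1 (38.9 against 47.2), CARS1 (71.6 against 101.7) and PARP1 (762 against 799 CPM). With both drugs, replicate 2 was highest for H2BC21 (11.7 against 6.49), GPT2 (99.1 against 74.1) and MT-TP (2.37 against 0.374 CPM). Replicate 4 was lowest for DNAJB1 (84.3 against 108) and highest for MT-TQ (1.65 against 0.249), replicate 1 was lowest for TNFRSF10D (18.6 against 23.5) and highest for MDM2 (321 against 247), and replicate 3 was lowest for CCN1 (63.8 against 69.5 CPM).

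Effects differed by test in 3 genes. The log2FC of OL9-119 on ATF3 differed by −1.16 between cells with and without Tpc (edgeR adjusted p = 6.5e-06). Between WT and PARP1-KO cells that on HSPA1B differed by −1.47 (edgeR adjusted p = 8.47e-05) and that on STC2 by 1.05 (edgeR adjusted p = 0.000485).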

How the results depend on the processing

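None of the 52 DEGs changed direction in any of 8 fits that left out 1 library or under 12 other settings, 24 were called in all 8 fits and 20 under all settings. The number of DEGs of the addition was 79 with no filter on low counts, 22 with WT libraries only, 106 with DESeq2, 82 at a threshold of 0.05 and 19 with an absolute log2FC of at least 1, and 31 to 53 without 1 library. A replicate block on the number gave 67, including all 52, though the numbers were not taken to pair the libraries. For OL9-119 alone the count of 334 became 556 with no filter, about 1.2e+02 with WT libraries only (68 higher and 53 lower), 46 with only the libraries compared, 531 with length and GC offsets, 719 with DESeq2, 783 at 0.05 and 74 with a log2FC of at least 1, and 187 to 595 without 1 library. For the difference with and without Tpc, 1 became 16 with no filter, 5 with filterByExpr, 4 with the replicate block, 5 with the title prefix as a batch, 9 with DESeq2, 6 at 0.05, 3 with WT replicates 3 and 4 summed and 4 with TMM without mitochondrial genes, and 1 to 5 without 1 library. For PARP1-KO cells, 0 became 4 with no filter and 1 with only the libraries compared, the replicate block, offsets or DESeq2, and 0 to 1 without 1 library. For the genotype difference, 2 became 4 with RLE, summed replicates or edgeR legacy off, 10 with no filter, 6 with only the libraries compared, 5 with the block or the prefix, 9 with offsets, 13 with DESeq2 and 7 at 0.05, and 2 to 4 without 1 library. For Tpc against DMSO, 285 became about 1.2e+02 with WT libraries only (73 higher and 48 lower), 56 with only the libraries compared, 460 with offsets, 517 with DESeq2, 571 at 0.05 and 109 with a log2FC of at least 1, and 204 to 425 without 1 library. The cause was not tested. The summed replicates, the TMM without mitochondrial genes, the legacy setting and the values by gene without replicate 3 of PARP1-KO cells with both drugs were chosen after seeing the data.

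Genes near 0 that were not called changed sign. PARP1 was −0.00398 with no filter, −0.0107 with filterByExpr and −0.00869 with TMM without mitochondrial genes, CXCL8 −0.00117 with filterByExpr and −0.10 with offsets, and with offsets NFKB1 −0.0719, MDM2 −0.0677 and MT-RNR2 0.0127. Without 1 library the ranges were −0.0314 to 0.0175 for PARP1, −0.133 to 0.121 for CXCL8, −0.0212 to 0.0861 for NFKB1, −0.114 to 0.0640 for MDM2, −0.0998 to 0.0612 for MT-RNR2, −0.0150 to 0.115 for TOP1 and −0.00891 to 0.0443 for ATF3. The median of 6 of 25 lists changed sign under some setting. Counting error weighs most on genes of few counts, and a depth-matched fit was not made.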
